A study of Mus musculus with 8 samples.

Results

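The genes of the Wnt pathway were examined in the RNA-seq table that compares mouse embryonic stem cells with wild-type TET1 and with the TET1 D2018A mutant. The members are 52 listed pathway genes, each found once by its symbol among the 19429 genes of the table: 11 Wnt ligands, 2 genes of ligand secretion, 10 Frizzled receptors, 3 co-receptors and R-spondin receptors, 3 Dishevelled genes, 5 genes of the destruction complex with beta-catenin, 4 Tcf/Lef factors, 8 feedback targets and 6 secreted inhibitors. Of these, 44 had an adjusted p-value and the remaining 8 had too few reads for one. All lines came from LF2 embryonic stem cells, were grown in medium with LIF and 10% serum, and carried a FLAG tag at the C-terminus of TET1 on both copies of Tet1, followed by a 2A peptide and a fluorescent protein. The WT group was lines 2 and 5, with wild-type TET1 sequence. The D2018A group was lines 7 and 8, whose TET1 has alanine in place of an aspartate close to its C-terminus, a change made to weaken the binding of TET1 to the glycosyltransferase OGT. Each line is a clone with 2 technical replicates, so each genotype has 4 of the 8 libraries. Per the study's own description the WT lines also carry a genomic deletion that the D2018A lines lack. From qPCR and 5mC levels in wild-type TET1 cells that keep a copy of that region, the study ascribed its differences to D2018A. No Wnt member is among its listed qPCR primers, so for the members this was not tested.

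In the canonical Wnt pathway, a secreted Wnt ligand binds a Frizzled receptor together with an Lrp co-receptor and, through Dishevelled, stops the destruction complex of Axin, Apc and Gsk3 from marking beta-catenin for degradation. Beta-catenin then enters the nucleus and joins Tcf and Lef factors on DNA, where genes such as Axin2, Sp5, Nkd1, Notum, Rnf43 and Znrf3 are switched on and in turn restrain the pathway. In mouse embryonic stem cells Wnt signals favour self-renewal, and Tcf7l1 is known there mainly as a repressor of pluripotency genes.

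Fold changes are given on the log2 scale as D2018A over WT with the standard error, so a negative value is lower in D2018A. Levels are mean normalised read counts over all libraries of the authors' fit, and levels of different genes are compared only per kilobase of annotated exon. Adjusted p-values are those of the authors' DESeq2 Wald test with Benjamini-Hochberg adjustment over the 15285 genes tested. The columns used here cover all libraries together and not single libraries or lines, so whether the libraries of the genotypes overlap cannot be stated for any gene with a mean of 2 or above, and technical replicates of a line count as separate libraries in the standard errors.

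Of the 44 members tested, 8 passed an adjusted p of 0.05, or 18.2%, against 8.71% of all genes tested (DESeq2 Wald test). Of these, 3 were higher in D2018A (Sfrp1, Fzd2 and Fzd10) and 5 were lower (Lef1, Rnf43, Porcn, Fzd7 and Lgr4), where 4.29% of all genes passed as higher and 4.42% as lower. With a change of at least 2-fold asked for as well, 2 members were called, Lef1 and Rnf43, both lower, or 4.55% against 2.47% of all genes. The share was higher for genes with many reads. At means of 100 or above, 6 of 25 members (24.0%) and 1060 of 8673 genes in all (12.2%) passed. The median log2 fold change was -0.03 over the 44 members and -0.01 over all genes tested, and the median of the absolute values was 0.27 and 0.21. For 30 of the 44 members the 95% interval of the log2 fold change lay within 1 of 0 on both sides. With each standard error enlarged by the square root of 2, which counts each line once but leaves the estimated spread between libraries as it is, none of the 8 members passed, with adjusted p-values of 0.227 for Porcn to 0.479 for Fzd2 (Benjamini-Hochberg, the DESeq2 standard errors rescaled). The plot of fold changes shows every tested member by role.

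**Figure D1:**
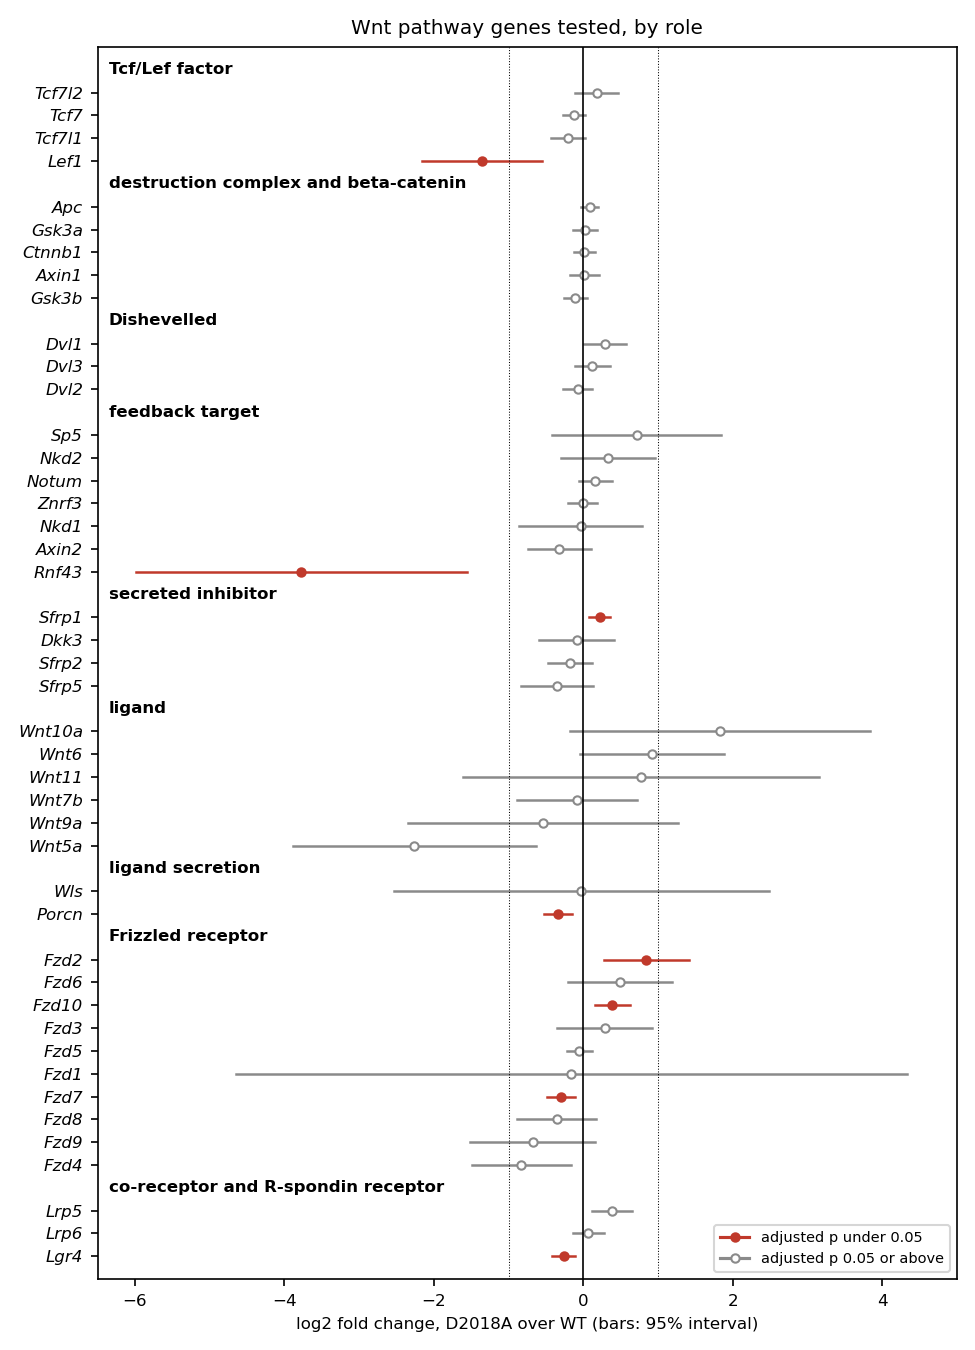
Log2 fold change of D2018A over WT (x axis) for the 44 Wnt pathway genes tested, grouped by role, with points for the deposited estimates, bars for 95% intervals and dotted lines at 2-fold. Filled red points have an adjusted p under 0.05; Lef1 and Rnf43 are the only filled points beyond the dotted lines, and the ligands have wide bars.

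Among the 4 Tcf/Lef factors, which carry beta-catenin's output to DNA, only Lef1 passed the test. Lef1 (ENSMUSG00000027985, chromosome 3, 131110471 to 131224356 on the plus strand of GRCm38) had a mean of 283 normalised counts. It was lower in D2018A, with a fold change of -1.35 ± 0.41 on the log2 scale (adjusted p of 0.0147, DESeq2 Wald test), which puts D2018A at 39.1% of WT with a 95% interval of 22.5% to 68.1%. From its fold change and its mean, the WT mean was at most 610 normalised counts and the D2018A mean at most 239.

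The standard error of Lef1 was unusual for its level. It was 2.59 times the median of 0.158 over the 2382 genes whose mean lay within 1.5-fold of that of Lef1, and higher than that of 99.9% of them. Genes were matched on the mean over the whole fit and not on the mean within a genotype. Why the error of Lef1 was high, and which libraries were high or low, was not tested. A gene on the opposite strand, Gm43352, overlaps 13.7% of the exon bases of Lef1, and its own mean was 0.416 normalised counts.

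The other Tcf/Lef factors had small fold changes. Tcf7 had the highest level of the 4 genes per kilobase over all libraries of the fit. Its log2 fold change was -0.13 ± 0.08, at an adjusted p of 0.410 (DESeq2 Wald test), with a 95% interval from -0.28 to 0.03. The fold change of Tcf7l1 was -0.20 ± 0.12, with an adjusted p of 0.357 (DESeq2) and an interval from -0.43 to 0.03. The fold change of Tcf7l2 was 0.18 ± 0.15, with an adjusted p of 0.601 (DESeq2) and an interval from -0.12 to 0.47. The estimate for Lef1 lay outside the intervals of these 3 genes, but its own interval, from -2.15 to -0.55, ended near that of Tcf7l1. The difference between the genes was not tested.

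By level over the whole fit, Tcf7 stood at 763 normalised counts per kilobase of exon, Tcf7l1 at 451, Tcf7l2 at 55.5 and Lef1 at 32.2. Lef1 was the lowest of the 4 factors in this mean over all libraries of the fit. The order within WT is not shown, since Lef1 differed between the genotypes and its WT mean may reach 610 normalised counts, against at most 686 for Tcf7l2. The order was the same when the longest annotated transcript replaced the exon total, with values per kilobase of 811, 582, 131 and 77.4.

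A Tcf/Lef factor binds DNA at a short core, and promoters of members were read for the letters CTTTGAT or, on the other strand, ATCAAAG. RefSeq windows on GRCm38.p6, 250 bases before and 50 bases after a start, were matched for 34 of the 52 members. The core stood in windows of 3 members, Sp5, Wnt11 and Wnt5b, or 3 of 44 windows (6.82%), against 1225 of 32851 windows of all genes (3.73%). The median window of a member held 23.5 CpG, and that of all genes 7. The 250 bases before the first RefSeq start are shown for Lef1, the Tcf/Lef factor that was lower in D2018A, and for Sp5 and Axin2, feedback targets that are commonly used to read the pathway, with the core in capitals where present. The Lef1 window lies at chr3:131110047-131110296, the Sp5 window at chr2:70474673-70474922 and the Axin2 window at chr11:108920099-108920348, all on the plus strand of GRCm38.p6.
Lef1: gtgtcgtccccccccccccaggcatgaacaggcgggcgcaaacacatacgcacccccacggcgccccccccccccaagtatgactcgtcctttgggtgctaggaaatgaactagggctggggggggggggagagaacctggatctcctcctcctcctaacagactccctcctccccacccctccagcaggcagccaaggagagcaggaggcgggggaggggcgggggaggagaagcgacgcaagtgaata
Sp5: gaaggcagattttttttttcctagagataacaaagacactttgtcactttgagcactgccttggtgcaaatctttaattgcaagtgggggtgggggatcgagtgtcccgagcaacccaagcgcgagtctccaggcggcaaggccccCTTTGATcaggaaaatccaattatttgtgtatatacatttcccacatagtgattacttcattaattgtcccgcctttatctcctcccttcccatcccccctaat
Axin2: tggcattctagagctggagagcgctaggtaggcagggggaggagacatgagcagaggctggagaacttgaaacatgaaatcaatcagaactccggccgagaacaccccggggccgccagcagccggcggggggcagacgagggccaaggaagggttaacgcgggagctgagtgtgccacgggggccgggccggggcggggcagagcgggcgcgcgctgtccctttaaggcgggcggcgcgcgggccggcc
Only the Sp5 window of the 3 holds the core. Windows of Rnf43 hold none. A match describes letters and not a bound site, and its absence covers these windows and this exact spelling only. Other spellings of the core were not searched.

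The destruction complex and beta-catenin were the most even group. None of the 5 genes passed, all were well measured with means of 949 to 3705, and all 5 intervals lay within 2-fold. Ctnnb1, which encodes beta-catenin itself, had a mean of 3225 normalised counts and a log2 fold change of 0.01 ± 0.07, with an interval from -0.13 to 0.16. Gsk3a, a kinase that marks beta-catenin and the member with the highest level per kilobase (1277), had a fold change of 0.02 ± 0.08, and the other kinase Gsk3b had -0.11 ± 0.08. The scaffold Axin1 stood at 0.01 ± 0.10 and the scaffold Apc at 0.08 ± 0.06, both on the log2 scale. Exon bases of Gsk3a are shared with a gene on the opposite strand, 9130221H12Rik, over 28.3% of their length, and strand use in the authors' counting was not stated in the sources used here. That neighbour had a mean of 10.7 normalised counts, against 3705 for Gsk3a.

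The 3 Dishevelled genes, which relay the receptor signal to the destruction complex, did not pass either. Dvl1 had the largest of their log2 fold changes, 0.29 ± 0.14 with an adjusted p of 0.232 (DESeq2 Wald test), and its interval from 0.01 to 0.57 did not reach 2-fold. Dvl2 and Dvl3, the more abundant pair per kilobase at 192 and 158, had fold changes of -0.08 ± 0.10 and 0.12 ± 0.12 on the log2 scale.

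Among the 8 feedback targets, 7 of them tested, Rnf43 was the single gene that passed, where 8.71% of all genes tested passed. Rnf43 encodes a membrane ubiquitin ligase that removes Frizzled receptors from the cell surface. Its log2 fold change was -3.77 ± 1.13, at an adjusted p of 0.0139 (DESeq2 Wald test), or 7.31% of the WT level with an interval of 1.58% to 34.0%. The gene was at a low level, with a mean of 9.93 normalised counts, at most 27.8 in WT and at most 2.03 in D2018A. A minimum mean of 10 would leave it out of the test. The standard error of Rnf43 was 1.34 times the median of genes of like mean, and higher than that of 91.4% of them. Its close relative Znrf3, with the same function and a mean of 825, had a fold change of -0.01 ± 0.10 on the log2 scale.

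The targets most used to read the pathway gave no change past the test. Axin2, a second scaffold of the destruction complex, had a mean of 121 normalised counts and a log2 fold change of -0.32 ± 0.22, at an adjusted p of 0.477 (DESeq2) and an interval from -0.75 to 0.11. Notum, which encodes a secreted enzyme that inactivates Wnt ligands, had the highest level of the group per kilobase at 194 and a log2 fold change of 0.16 ± 0.11. A gene on the opposite strand, Notumos, overlaps 29.4% of the exon bases of Notum. The mean of Notumos was 20.0 normalised counts, against 468 for Notum. Sp5, a transcription factor gene with the core in the printed promoter, had a fold change of 0.71 ± 0.57 at a mean of 16.5, and its interval from -0.41 to 1.84 leaves room for a rise of more than 2-fold. The 2 Nkd genes, whose proteins bind Dishevelled, stood at -0.03 ± 0.42 for Nkd1 and 0.33 ± 0.32 for Nkd2. Of the 7 feedback targets tested, 4 had a negative and 3 a positive fold change, and 5 had an interval within 2-fold.

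Of the 6 secreted inhibitors, 4 were tested and Sfrp1 passed, where 8.71% of all genes tested passed. Sfrp1, a secreted relative of Frizzled that binds Wnt ligands, was higher in D2018A by 0.22 ± 0.07 (log2), with an adjusted p of 0.0382 (DESeq2 Wald test), or 116% of WT with an interval of 105% to 128%. Its mean of 2170 normalised counts was the highest of the inhibitors, and per kilobase it stood at 496. Sfrp2, next in level at 104 per kilobase, had a log2 fold change of -0.18 ± 0.15. Sfrp5 and Dkk3 had fold changes of -0.36 ± 0.25 and -0.09 ± 0.26, so all 3 of the others tested had a negative sign without passing. Dkk1, which blocks the Lrp co-receptors, and Wif1 had means of 0.751 and 0.584.

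The Wnt ligands were at low levels throughout. Their highest mean was 30.3 normalised counts, for Wnt7b, and the means of the 11 ligands summed to 94.0. Per kilobase, Wnt6 was the highest at 11.9 and Wnt7b followed at 6.18, whereas the Frizzled gene Fzd5 stood at 669. Of the 11 ligands 6 were tested and none passed (DESeq2 Wald test), with 3 positive and 3 negative fold changes, and only the interval of Wnt7b, from -0.89 to 0.72 around -0.08 ± 0.41, lay within 2-fold.

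Several ligands had large fold changes that did not pass after adjustment. Wnt5a, a ligand known mainly for signals that do not use beta-catenin, had the largest of the 6 tested, -2.26 ± 0.83 (log2), at an adjusted p of 0.0649 (DESeq2) at a mean of 10.1, and its interval ran from -3.88 to -0.64 before adjustment. Wnt10a and Wnt6 are neighbours on chromosome 1, with 6.19 kb between them. Their log2 fold changes were 1.82 ± 1.03 for Wnt10a, with an adjusted p of 0.339, and 0.92 ± 0.49 for Wnt6, with an adjusted p of 0.307 (DESeq2). Wnt9a and Wnt11 stood at -0.54 ± 0.92 and 0.77 ± 1.22.

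**Figure D2:**
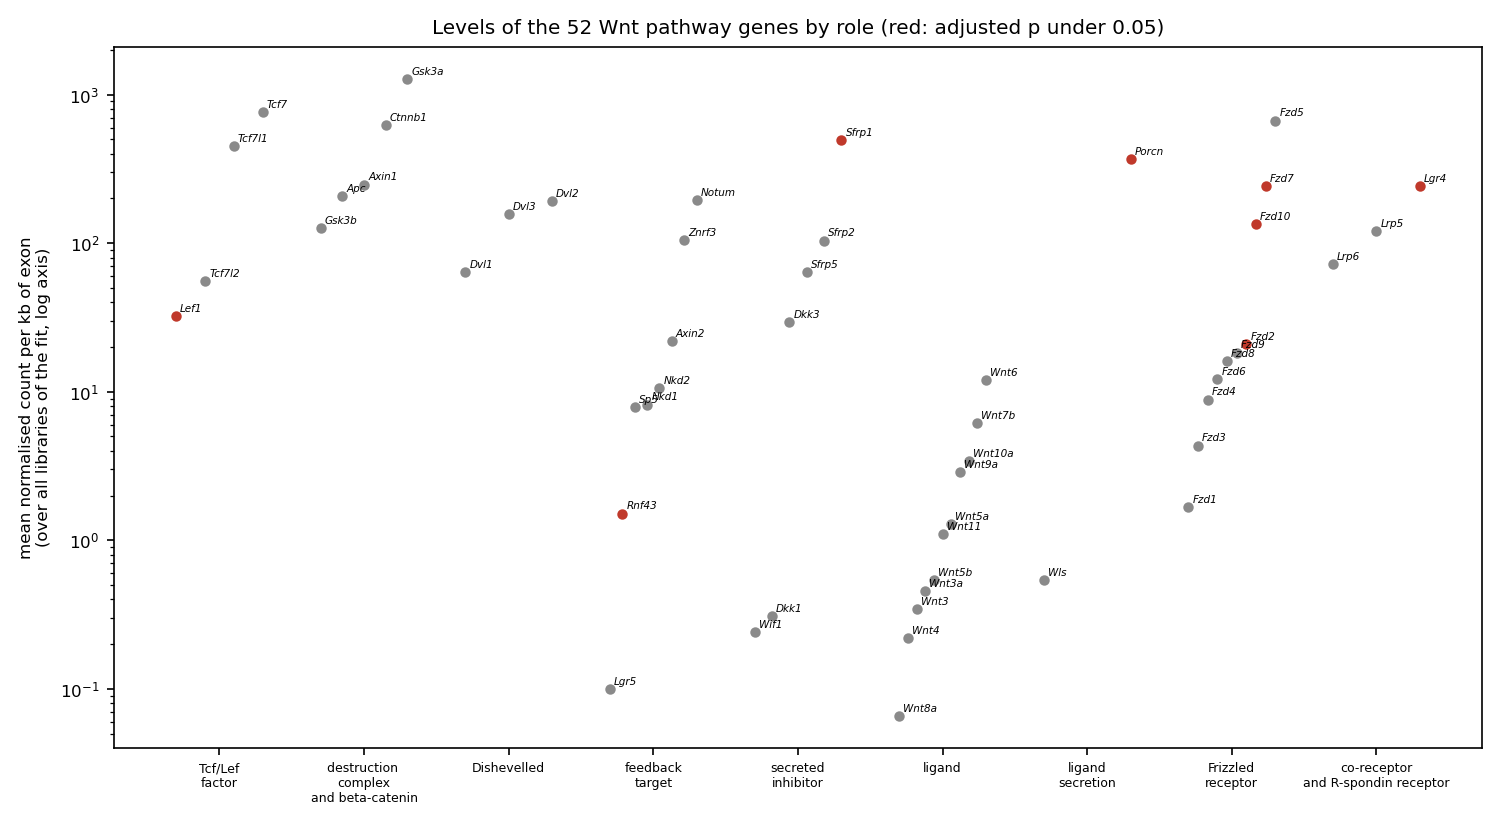
Mean normalised count per kilobase of exon over all libraries of the fit (y axis, log scale) for each of the 52 genes, by role (x axis), red where the adjusted p is under 0.05. Every ligand sits at 11.9 or below, while Gsk3a is highest at 1277 and Wnt8a lowest at 0.066.

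The 2 genes of ligand secretion differed greatly in level. Porcn, which attaches the lipid that Wnt ligands need, had a mean of 1107 normalised counts and 369 per kilobase, and Wls, which carries ligands to the cell surface, had a mean of 4.74. In D2018A, Porcn fell by 0.34 ± 0.10 (log2), with an adjusted p of 0.00731 (DESeq2 Wald test), or 79.2% of WT with an interval of 69.6% to 90.1%. The fold change of Wls was -0.03 ± 1.28, an error too large to show any change under several-fold.

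Of the 10 Frizzled receptors 3 passed, where 8.71% of all genes tested passed, and the 3 did not share a direction. Fzd10 was higher in D2018A by 0.39 ± 0.12 (log2), with an adjusted p of 0.0163 (DESeq2 Wald test) at a mean of 438. Fzd2 was higher by 0.84 ± 0.29, with an adjusted p of 0.0448 (DESeq2) at a mean of 76.7, and its p became 0.0569 when every gene with a p-value entered the adjustment. Fzd7, a receptor known in pluripotent cells for its part in self-renewal, fell by 0.30 ± 0.10 in D2018A, with an adjusted p of 0.0314 (DESeq2) at a mean of 1094. On the linear scale these 3 stood at 131%, 179% and 81.4% of WT.

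Fzd5 and Fzd7 were the Frizzled genes with the highest levels per kilobase, 669 and 241. Fzd5 also had the highest mean of all 52 members, 4623 normalised counts, and a log2 fold change of -0.05 ± 0.09 with an interval from -0.22 to 0.12. Among the 7 Frizzled genes that did not pass, Fzd4 came nearest, at -0.83 ± 0.34 with an adjusted p of 0.117 (DESeq2). Fzd1 had a mean of 7.00 and a standard error of 2.29, which is 2.25 times the median of genes of like mean, so its fold change of -0.16 carries little information. Fzd5 shares 17.8% of its exon bases with Gm38058 on the opposite strand.

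Among the co-receptors, Lgr4, a receptor for the R-spondins that strengthen Wnt signals, fell by 0.27 ± 0.08 (log2) in D2018A, with an adjusted p of 0.00783 (DESeq2 Wald test), or 83.2% of WT with an interval of 75.1% to 92.2%. Lrp5, which partners Frizzled, lay at the threshold with a log2 fold change of 0.38 ± 0.13, at an adjusted p of 0.0501 (DESeq2), and its standard error was 1.43 times that of genes of like mean. Its close relative Lrp6 had a fold change of 0.07 ± 0.10. Per kilobase Lgr4 stood at 242, Lrp5 at 121 and Lrp6 at 72.8.

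**Figure D3:**
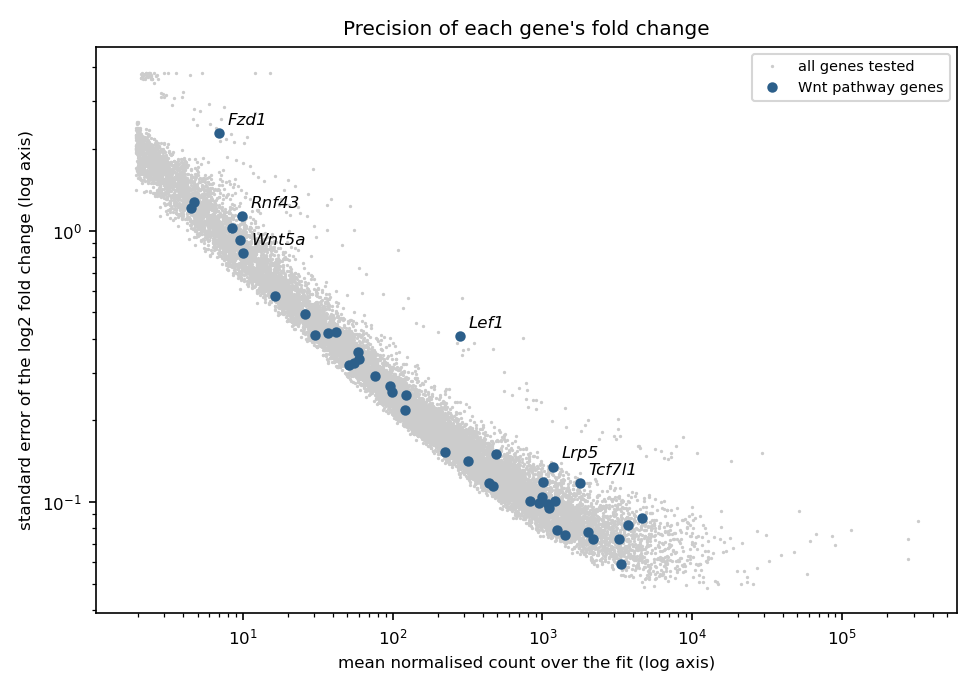
Standard error of the log2 fold change (y axis, log scale) against the mean normalised count over the fit (x axis, log scale) for all 15285 genes tested (grey) and the 44 Wnt pathway genes tested (blue). Lef1, with a standard error of 0.41 at a mean of 283, lies above nearly all genes of like mean, and Fzd1 lies above its neighbours too.

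For the 8 members with a mean under 2, whole reads could be recovered from the deposited means. A single read adds to a mean a fixed step set by its library, and the table holds 12 such steps, 4 where a lone read gives a deposited log2 fold change of -0.87 (taken as WT), 4 where it gives 0.57 (D2018A) and 4 where it gives -0.15, taken as libraries outside the comparison. The steps cannot be tied to lines. For 7 members exactly 1 set of reads gave the deposited mean, and for Wnt5b 2 sets did. The first has 9 reads in WT, 5 in D2018A and 4 outside the comparison, and the second 5, 0 and 9. The first gives a log2 ratio of -1.07 against the deposited -3.00. The second has no read in D2018A and so gives no ratio. Of the 7 members with 1 set, 4 had at least 4 reads in both genotypes. For these 4 the log2 ratio from the recovered reads differed from the deposited one by at most 0.033. Wif1, with 1 read in D2018A, had a recovered ratio of -2.60 against the deposited -2.29.

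The reads of the low ligands lay in few libraries. Wnt3, a ligand of the primitive streak, had 11 reads in WT and 4 in D2018A, with all WT reads in 1 of 4 libraries and all D2018A reads in 1 of 4. Wnt3a had 8 reads in WT and 10 in D2018A, each from 2 libraries. Wnt4 had 6 reads in WT from 3 libraries and 8 in D2018A from 1 library. Wnt8a had no read in either genotype, and a count of 0 allows up to 3 reads over the libraries of a genotype. No difference between the genotypes could be read at this depth.

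Of the other low members, Lgr5, an R-spondin receptor and target gene, had 7 reads in WT, 4 in D2018A and 2 outside the comparison. Wif1 had 5, 1 and 1 in the same order. Dkk1 had 3 reads in WT from 1 library, none in D2018A and 5 outside the comparison. The plot of reads shows these counts, which cover counting error only.

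**Figure D4:**
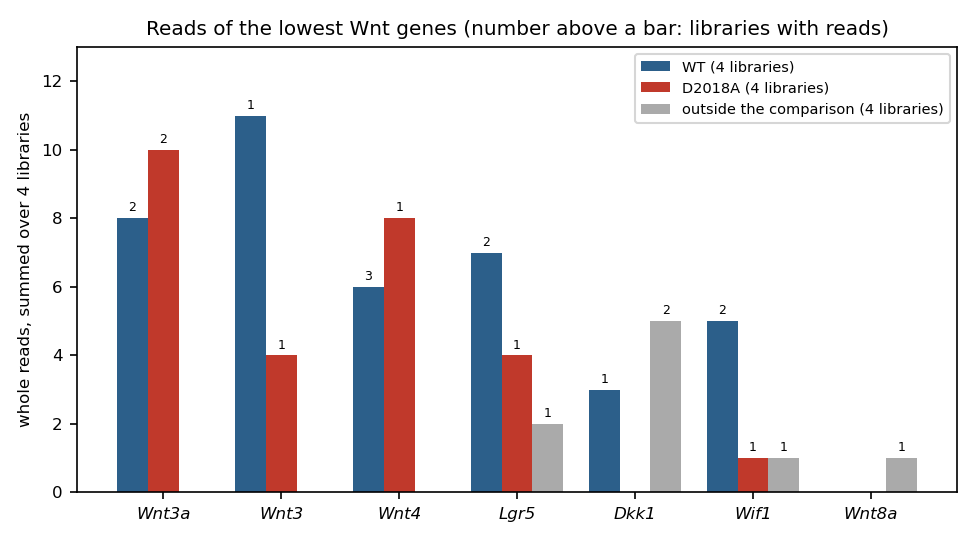
Whole reads recovered from the deposited means (y axis), summed over 4 libraries each for WT, D2018A and the libraries outside the comparison, for the 7 lowest members with a unique set (x axis), with the number of libraries that held reads above each bar. Wnt3 had all 11 WT reads in 1 library, and Wnt8a had a read only outside the comparison.

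Other genes of the pathway, taken from a list of 79 that is not among the members, had no call at 2-fold. Of 63 tested, 10 passed (DESeq2 Wald test), 4 higher and 6 lower, where 8.71% of all genes tested passed, 4.29% as higher and 4.42% as lower, and 2.47% were called at 2-fold. The median log2 fold change of the 63 was -0.04. Ror2, a receptor of Wnt5a, was higher by 0.88 ± 0.19, and Gpc4, a membrane proteoglycan, fell by 0.75 ± 0.10 (log2). Nuclear factors of the pathway were listed without separating activators from repressors. Of these, Bcl9l at -0.40 ± 0.14, Tle1 at -0.34 ± 0.09 and Chd8 at -0.25 ± 0.07 were lower, and Aes at 0.36 ± 0.08 was higher. Among other listed components inside the cell, Csnk1e and Amer1 were higher, by 0.30 ± 0.07 and 0.27 ± 0.09. Csnk1g1 and Usp7 were lower, at -0.36 ± 0.10 and -0.16 ± 0.05.

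Of 16 further target genes of the pathway, 14 were tested and 1 passed, Tnfrsf19, at -1.56 ± 0.49 (log2) and an adjusted p of 0.0193 (DESeq2). Over all genes tested, 8.71% passed and 2.47% were called at 2-fold. Ccnd1 and Myc, the most abundant of them, had fold changes of 0.05 ± 0.08 and 0.22 ± 0.09, neither past the test. Among 5 genes that Tcf7l1 is known to repress in embryonic stem cells, Klf2 passed at -0.46 ± 0.10, and Esrrb, Nanog, Tfcp2l1 and Nr5a2 did not, with fold changes from -0.21 to 0.18.

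The embryonic stem cell label was checked against markers. All 5 markers of these cells were abundant over all libraries of the fit, with means of 977 to 23079 normalised counts. None of the 5 passed the test. Most markers of other cell types did not pass, but at least 1 in each group did, a share above the 8.71% of all genes tested. The groups hold few genes, so 1 gene alone is above that share. Those that passed went in both directions. Of 7 formative and primed epiblast markers tested, 3 passed, with Zic2 at -3.21 ± 0.13 and Otx2 at -1.97 ± 0.24 lower and Foxd3 at 0.84 ± 0.12 higher. Of 6 primitive endoderm markers 2 passed, Sox7 at 1.21 ± 0.13 and Gata4 at -0.92 ± 0.29. Gata6 had the largest estimate of the 6, 3.24 ± 1.24, at an adjusted p of 0.0839 (DESeq2) and a mean of 17.6. Eomes was higher, at 0.60 ± 0.18, the only one to pass of 6 primitive streak markers and of 3 trophectoderm markers tested. Of 4 neural markers tested only Sox1 passed, at 1.04 ± 0.20, and of 2 feeder markers tested only Col1a1, at 1.21 ± 0.24, while Col1a2 and Col3a1 had means of 0.689 and 0.093. The part of these cell-state genes in the differences of Lef1, Rnf43 and the other members was not tested.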

How the data were processed

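RNA-seq was made from 8 libraries, 2 technical replicates of each of 4 lines, after ribosomal RNA depletion and with a total RNA kit. Per the labels and methods, the authors aligned and counted reads with STAR 2.5.3a on GRCm38.p6 and compared the genotypes with DESeq2 1.20.0. The deposited table holds only that comparison. Its mean column is the authors' signal, gene counts divided by size factors and averaged over the fit. Its fold change and standard error are the authors' log2 values, its Wald statistic is the authors' score, and its p-value and adjusted p-value are deposited as the authors computed them. No column of single samples was used. These columns were used because no others bear on the genotypes. The planned count model needs counts per library and was not run.

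The deposited adjusted p-values were recomputed to within 1.51e-06 by Benjamini-Hochberg over 15285 genes, and 4144 genes with means of at most 1.93 had none. Single-read steps, 38 to 123 genes each, gave 12 libraries in the fit with size factors of 0.726 to 1.47. Depth per library is unknown, so no total is given. The upper limit of a genotype's mean is the mean over the fit times 12 over 4, divided between the genotypes by the fold change. Intervals are 95% normal intervals. Exon lengths and overlaps came from GENCODE vM21, in which 46 of 52 members have the same start and end as in the table, and promoters from RefSeq. Calculations used Python 3.11.15, pandas 2.3.3, numpy 2.4.6 and scipy 1.17.1 and were tested on simulated data. Named genes were the Tcf/Lef factors, members past the test, the 2 highest per kilobase in each role, members changed at least 2-fold without passing, members with means under 1 and the listed other genes past the test. Others, among them Dvl1, Axin2, Sp5, Fzd4, Fzd1 and Lrp5, were named after their values were seen. The members and lists were chosen with earlier results of these data known. Where replicates come from 1 line, p-values measure a spread that is partly technical.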

Additional observations from a re-analysis of the deposited data

Results flagged for a closer look

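Dkk1, a secreted inhibitor with a mean of 0.751, had 5 recovered reads in the libraries outside the comparison, from 2 of 4 such libraries, beside 3 reads in WT and none in D2018A. It was singled out because those libraries belong to no genotype of the comparison and held more reads than either. What the libraries are is not given in the sources used here, and the difference was not tested.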

How the results depend on the processing

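Alternatives were run for the 4 Tcf/Lef factors and the members that passed, 11 genes in all. Only centring, by -0.0028, alters a fold change, and it turned none of the 11. With standard errors larger by the square root of 2, which counts each line once and does not correct the estimated spread for technical replicates that resemble each other, 0 members passed an adjusted p of 0.05, 0 were called at 2-fold, and all genes called fell from 378 to 175 (83 higher and 92 lower). The adjusted p was then 0.308 for Lef1 and 0.301 for Rnf43 (Benjamini-Hochberg on the rescaled DESeq2 errors). A minimum mean of 10 left 1 member called, Lef1, since Rnf43 fell below it. At an adjusted p under 0.01, 0 members were called, and a test against 2-fold called 0 members and 52 genes in all. The other counts stayed within 1.5-fold. With no filter 7 members passed, without Fzd2, and with centred fold changes 9 passed, with Lrp5 added. The order of the Tcf/Lef factors was the same by either length. No paired analysis was possible because the table holds no values per library, and for the same reason leaving out each replicate was not run. Apart from Rnf43, no tested member with a mean under 10 had an interval that left out 0.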
